A study of Mus musculus with 12 samples.

Results

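Ly6a, Ly6c1, Ly6e and Ly6d are 4 genes of the Ly6 cluster on mouse chromosome 15, read here by every probe whose gene name on the array is one of these symbols. They had 5 of the 55681 probes of the array: 1 each for Ly6a, Ly6e and Ly6d, and 2 for Ly6c1. All 5 were among the 29297 probes that were well above background on at least 2 of 12 arrays and were tested. Ly6a and Ly6c1 were selected on their measured difference between G0s2 siRNA and control siRNA liver and on their high level on the day-7 DEN array, so those values are given as a description without a test. Ly6e and Ly6d were added as relatives from the same cluster.

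Ly6 proteins are small surface proteins held in the membrane by a glycosylphosphatidylinositol (GPI) anchor, and they share the cysteine-rich fold of the urokinase receptor. Ly6a, also called Sca-1, marks mouse haematopoietic stem cells and is found on endothelium and lymphocytes. Ly6c1 is an antigen of endothelium and lymphocyte subsets, Ly6e responds to interferon and to retinoic acid, and Ly6d is known from lymphoid progenitors and keratinocytes. Ly6a and Ly6c1 are also known to differ in expression between inbred mouse strains that carry different alleles of the cluster, and ICR is an outbred stock, in which animals are not genetically alike.

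Liver RNA of wild-type male ICR mice was hybridised to 12 one-colour Agilent arrays. Per the labels, the mice were bought at 5 weeks of age and adapted for 1 week. The groups were vehicle (water), diethylnitrosamine (DEN, a DNA-alkylating liver carcinogen; 80 mg/L in the water, near 400 µg daily), ATRA (all-trans retinoic acid, a vitamin A metabolite that activates nuclear receptors; 30 mg/L in the water, near 150 µg daily), ATRA with DEN, control siRNA and G0s2 siRNA (1.6 nmol, intravenous, in a lipid carrier), each at day 2 and day 7. Each of these 12 groups had 1 array, so no group had replicates, and the labels leave unsaid whether 1 mouse or several gave its RNA. By the protocol siRNA was injected a day ahead of DEN, but the labels of the siRNA arrays name no DEN. G0s2 encodes an inhibitor of the triglyceride lipase ATGL.

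For 3 day-7 arrays the treatment field disagreed with the title, and titles were used. That field gives ATRA for the one titled DEN, DEN for the one titled ATRA+DEN, and both agents for the one titled ATRA. At day 7 the retinoic acid target Cyp26a1 stood at 7.11 on the array titled ATRA, 4.34 on ATRA+DEN, 1.35 on DEN and 2.38 on vehicle. The p53 target Cdkn1a stood at 6.83 on the array titled DEN, 6.62 on ATRA+DEN, 2.84 on ATRA and 1.97 on vehicle. Both followed the titles. On the control and G0s2 siRNA arrays Cdkn1a stood at 4.00 and 3.37 at day 2 and at 5.56 and 6.82 at day 7. The other day-2 arrays read 1.12 with vehicle, 2.13 with ATRA, 4.02 with DEN and 3.39 with ATRA+DEN. Whether the mice of the siRNA arrays had DEN was not tested. The targeted gene G0s2 was at 1.99 with its siRNA against 3.84 with the control siRNA at day 2, and at 2.26 against 3.45 at day 7. These are levels, that is, log2 processed intensity minus the array's own 75th percentile, so that 0 is that percentile. The arrays lay on 4 slides, with 41.0% to 50.7% of probes well above background on each, and no probe was saturated. The number of arrays limits the precision.

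The Ly6a probe lay at chr15:74825553-74825612, the Ly6c1 probes at chr15:74875495-74875554 and chr15:74877785-74877844, the Ly6e probe at chr15:74789592-74789651 and the Ly6d probe at chr15:74592551-74592610, in mm9 coordinates of the array file. Ly6a, Ly6c1 and Ly6d are on the minus strand and Ly6e on the plus strand. The probe with the higher mean level, A_55_P2064771, stands for Ly6c1 unless the other is named. The second Ly6c1 probe, A_55_P1961499, is shown because it reads a separate stretch of the Ly6c1 transcript and so gives its level on each array a second time. Its 60 bases are printed 5′ to 3′ in the sense of the transcript.
Ly6c1 probe A_55_P1961499: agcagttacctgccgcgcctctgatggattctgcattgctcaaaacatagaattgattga

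Close relatives can share probe signal, so the probes of the cluster were set against each other without gaps. The Ly6a probe and the Ly6c1 probe A_55_P2064771 had at most 25 of 60 bases in common, with no shared run over 6 bases. The closest pair was the second Ly6c1 probe and that of Ly6i, at 27 bases. Ly6c2 and Ly6l have no probe of that name on this array. Probes were not set against the transcripts of relatives, so signal shared between any genes of the cluster was not tested.

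The Ly6c1 promoter is shown because Ly6c1 and Ly6a moved together and because 1 treatment was a retinoid. It is the RefSeq sequence of GRCm38.p6, chr15:75048838-75049087 on the minus strand, 250 bases that end just before the more upstream of the annotated starts. Capitals mark the only matches found on either strand to the motifs searched: the core promoter box TATAAA and the element AGGTCA, which retinoid and other nuclear receptors bind.
Ly6c1 promoter: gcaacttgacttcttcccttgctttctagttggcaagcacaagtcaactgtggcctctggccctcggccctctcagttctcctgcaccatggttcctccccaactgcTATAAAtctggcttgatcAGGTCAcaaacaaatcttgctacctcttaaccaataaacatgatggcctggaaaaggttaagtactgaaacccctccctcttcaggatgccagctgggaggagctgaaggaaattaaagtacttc

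AGGTCA was present in 16.3% and TATAAA in 13.6% of 32851 RefSeq promoter windows of 300 bases. The interferon motifs searched, TTCNNNGAA and GAAANNGAA, were present in 8.3% and 8.6% of those windows and were not among the letters of the Ly6c1 window. These matches are a description of the letters only.

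Ly6a had one of the widest spreads among the tested probes. At day 2 its level was 1.46 with vehicle, 2.02 with ATRA, 0.44 with DEN, 3.65 with ATRA+DEN, 4.23 with control siRNA and 7.46 with G0s2 siRNA. At day 7 it was 2.34 with vehicle, 0.45 with ATRA, 6.42 with DEN, 1.66 with ATRA+DEN, 1.31 with control siRNA and 7.83 with G0s2 siRNA. The highest 3 arrays were both G0s2 siRNA arrays and the day-7 DEN array, and the widest gap in the order, 2.19, lay just below them, between 6.42 and 4.23. The other 9 arrays ran from 0.44 to 4.23 and mixed vehicle, ATRA, DEN, ATRA+DEN and control siRNA. From lowest to highest the range was 7.40, or 168.6-fold. The SD over the 12 arrays was 2.65, larger than that of 99.95% of tested probes, whose median SD was 0.46. The probe was well above background on all 12 arrays.

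Ly6c1 had the same 3 arrays on top. At day 2 probe A_55_P2064771 stood at 4.05 with vehicle, 5.07 with ATRA, 3.33 with DEN, 5.33 with ATRA+DEN, 5.88 with control siRNA and 8.29 with G0s2 siRNA. At day 7 it stood at 4.42 with vehicle, 3.00 with ATRA, 7.51 with DEN, 4.19 with ATRA+DEN, 3.05 with control siRNA and 8.60 with G0s2 siRNA. The range was 5.60, or 48.5-fold, and the widest gap, 1.63, again lay below both G0s2 siRNA arrays and the day-7 DEN array. Its SD of 1.97 exceeded that of 99.66% of tested probes.

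The second Ly6c1 probe gave a like order. It read -1.40 with vehicle, -1.12 with ATRA, -3.29 with DEN, 0.09 with ATRA+DEN, -1.34 with control siRNA and 2.06 with G0s2 siRNA at day 2. At day 7 it read -1.14 with vehicle, -3.94 with ATRA, 1.53 with DEN, -2.28 with ATRA+DEN, -1.25 with control siRNA and 2.66 with G0s2 siRNA. The same 3 arrays led, above a gap of 1.44. It was not well above background on the day-2 DEN and day-7 ATRA arrays, where its level is only a bound. The Ly6c1 probes disagreed on both control siRNA arrays. That of day 7 was next to lowest by the first probe and near the middle by the second. That of day 2 had rank 4 from the top by the first probe and rank 8 by the second.

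Ly6e, a broadly expressed member, varied less and ordered the arrays differently. At day 2 it stood at 4.51 with vehicle, 5.46 with ATRA, 5.36 with DEN, 6.03 with ATRA+DEN, 7.11 with control siRNA and 7.32 with G0s2 siRNA. At day 7 it stood at 5.72 with vehicle, 5.79 with ATRA, 7.94 with DEN, 6.23 with ATRA+DEN, 7.42 with control siRNA and 8.12 with G0s2 siRNA. All 4 siRNA arrays and the day-7 DEN array, at 7.11 and above, were separated by a gap of 0.89 from the other 7, at 6.23 and below. The range was 3.62, or 12.3-fold, and the SD of 1.14 exceeded that of 94.9% of tested probes.

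Ly6d was lower than the 75th percentile on every array, with no wide gap. At day 2 it stood at -1.95 with vehicle, -2.73 with ATRA, -2.39 with DEN, -1.10 with ATRA+DEN, -0.75 with control siRNA and -2.04 with G0s2 siRNA. At day 7 it stood at -2.42 with vehicle, -1.64 with ATRA, -0.34 with DEN, -0.23 with ATRA+DEN, -1.11 with control siRNA and -1.31 with G0s2 siRNA. The range was 2.50, or 5.7-fold, the widest gap was 0.41, and the highest arrays were those titled ATRA+DEN and DEN at day 7. G0s2 siRNA arrays lay in the lower or middle part of this order, unlike for Ly6a and Ly6c1.

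**Figure D1:**
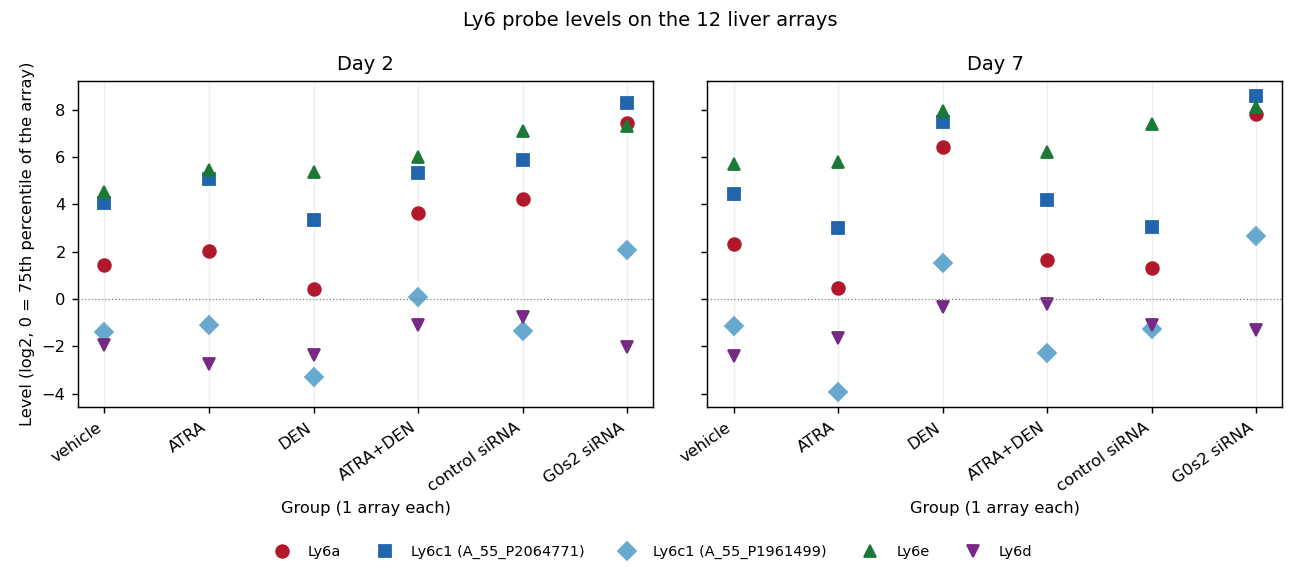
Level of the 5 member probes (vertical axis, log2, 0 is the array's 75th percentile) on the 12 arrays, day 2 on the left and day 7 on the right, 1 point per probe and array. Ly6a and both Ly6c1 probes are highest on both G0s2 siRNA arrays and the day-7 DEN array, where Ly6a reads 7.46, 7.83 and 6.42.

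No group had replicates, so neighbours in these orders cannot be set against a spread between animals. The only technical spread in the files was that of 239 probes spotted at least 8 times on an array, whose median SD within an array was 0.072; each member probe had 1 spot. Over the 12 arrays Ly6a correlated with Ly6c1 at r = 0.985 by probe A_55_P2064771 and 0.940 by A_55_P1961499, and the Ly6c1 probes correlated with each other at 0.921. Ly6a correlated with Ly6e at 0.760 and with Ly6d at 0.267. These are descriptions over 12 arrays that share their RNA and scaling. In whole liver, fewer cells of a type and less RNA per cell cannot be told apart.

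DEN was compared in 4 pairs: DEN against vehicle and ATRA+DEN against ATRA, at each day. In order, Ly6a differed by -1.02 and 1.63 at day 2 and by 4.08 and 1.21 at day 7. Ly6c1 differed by -0.72 and 0.26 at day 2 and by 3.09 and 1.19 at day 7. Both were thus lower with DEN in 1 pair and higher in 3, and the DEN and vehicle arrays of day 7 had the widest difference. That pair served to choose both genes, and 7.43% of tested probes were at least 2-fold higher on its DEN array. Over the other 3 pairs the mean was 0.61 (SE 0.80) for Ly6a, 0.24 (SE 0.67) for Ly6c1 and 0.32 (SE 0.72) for the second Ly6c1 probe. These means are given without a test, because the spread behind each SE draws in part on the siRNA arrays that served to choose both genes. Limma is the linear model fitted over all tested probes with Benjamini-Hochberg adjustment, and its threshold was 0.05. Over these 3 pairs limma called 0% of probes, with 2382 (8.13%) at an unadjusted p under 0.05. With all 4 pairs the means, with no test, were 1.48 (SE 0.88), 0.95 (SE 0.73) and 0.91 (SE 0.70).

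Ly6e was higher with DEN in 4 of 4 pairs, by 0.86 and 0.57 at day 2 and by 2.22 and 0.44 at day 7. The mean of 1.02 (SE 0.31) had an unadjusted limma p of 0.0162 and an adjusted p of 0.344, so it did not pass. When the DEN and vehicle arrays of day 7 were left out, the mean was 0.62 (SE 0.16, limma adjusted p = 0.555). Ly6d differed by -0.44 and 1.64 at day 2 and by 2.08 and 1.41 at day 7, with a mean of 1.17 (SE 0.43, limma adjusted p = 0.394). Limma called 0% of the 29297 probes in either direction for DEN, while 3412 (11.6%) had an unadjusted p under 0.05. With the deposited treatment field in place of the titles at day 7, the DEN mean of Ly6a was -1.51 and that of Ly6e -0.05.

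ATRA was compared in the 8 arrays without siRNA, as ATRA against vehicle and ATRA+DEN against DEN. Ly6a was higher with ATRA in both day-2 pairs, by 0.57 and 3.22, and lower in both day-7 pairs, at -1.89 and -4.76. Ly6c1 did the same, at 1.02 and 2.00 at day 2 and at -1.43 and -3.32 at day 7. The day-7 pairs span different slides. The mean was -0.71 (SE 1.31) for Ly6a, -0.43 (SE 0.93) for Ly6c1 and -0.74 (SE 1.25) for the second Ly6c1 probe, given without a test because the day-7 DEN array is among them. When the ATRA+DEN and DEN arrays of day 7 were left out, the means turned to 0.63, 0.53 and 0.29. None of them passed in limma (adjusted p = 0.941, 0.929 and 0.978). With slide in place of the pair as the block the means were 1.89, 1.51 and 1.83. Among these 8 arrays no day-7 slide held arrays both with and without ATRA. The means with slide as the block thus rest on the day-2 pairs alone.

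Ly6e, although known to respond to retinoic acid, showed no common direction with ATRA, at 0.95 and 0.66 at day 2 and 0.07 and -1.71 at day 7. Its mean was -0.01 (SE 0.47, limma adjusted p = 1.00), and 0.56 when the ATRA+DEN and DEN arrays of day 7 were left out. Ly6d had a mean of 0.35 (SE 0.36, limma adjusted p = 0.939). Limma called 0% of probes for ATRA in either direction, with 1698 (5.8%) at an unadjusted p under 0.05.

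Day 7 was compared with day 2 within each of the 6 treatments. Every day-2 array is on another slide than every day-7 array, so day and slide cannot be told apart. Ly6e was higher at day 7 in 6 of 6 pairs, by 0.20 to 2.57, with a mean of 0.90 (SE 0.32). Its limma adjusted p of 0.0517 did not pass the threshold, against which 23.2% of probes were called higher and 21.4% lower, and 53.3% had an unadjusted p under 0.05. With normexp background correction, with only probes above background on all 12 arrays, and without the DEN pair the limma adjusted p was 0.0381, 0.035 and 0.0466. With quantile normalization the mean was 0.63 and the adjusted p 0.180, with no filter on low signal the adjusted p was 0.0735, with 1 probe per gene 0.0501, and without each other pair from 0.0577 to 0.117.

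Ly6a was higher at day 7 in 3 treatments and lower in 3, from -2.92 with control siRNA to 5.98 with DEN, for a mean of 0.12 (SE 1.09). Without the DEN pair that mean was -1.05. Ly6c1 averaged -0.20 (SE 0.84), but 0.33 without the control siRNA pair and 0.18 without the ATRA pair, and its second probe averaged 0.10 (SE 0.92). These day means of Ly6a and Ly6c1 hold arrays on which the genes were selected and are given without a test. Ly6d averaged 0.65 (SE 0.33, limma adjusted p = 0.146). The control siRNA arrays, which had 1 injected reagent in common, thus differed by 2.92 in Ly6a between days.

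The G0s2 siRNA arrays were each compared with the control siRNA array of their day, as the comparison that served to choose Ly6a and Ly6c1. Ly6a differed by 3.23 at day 2 and 6.53 at day 7, and Ly6c1 by 2.42 and 5.54. Most of the change in the Ly6a difference between days lay in the control arrays, at 4.23 and 1.31, and not in the G0s2 siRNA arrays, at 7.46 and 7.83. The second Ly6c1 probe did not share this: it differed by 3.40 at day 2 and 3.92 at day 7, with -1.34 and -1.25 on the control arrays. Ly6e differed by 0.20 and 0.71, and Ly6d by -1.28 and -0.20. Of all tested probes, 2.89% were at least 2-fold higher at day 2, 4.65% at day 7 and 0.601% on both days.

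**Figure D2:**
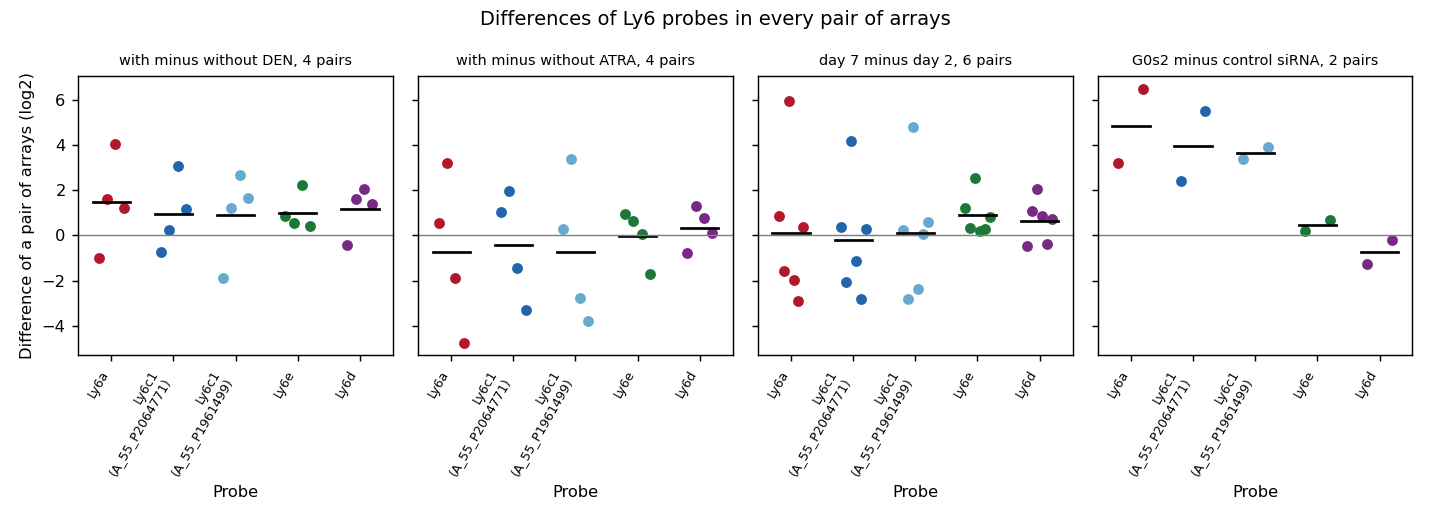
Differences (vertical axis, log2) of each member probe in every pair of arrays, for DEN, ATRA, day and G0s2 siRNA; points are pairs and bars are means. For Ly6a the day pairs run from -2.92 to 5.98 and the ATRA pairs from -4.76 to 3.22, on both sides of 0, whereas all 4 DEN pairs and all 6 day pairs of Ly6e are above 0.

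The Ly6a ranges of the slides overlapped, except that both arrays of slide 2 lay above all those of slide 1. Slide 2 held the siRNA arrays of day 2 and slide 1 the other day-2 arrays. Slide and siRNA injection thus cannot be told apart there. Ly6a ran from 0.44 to 3.65 among the 4 arrays of slide 1, from 4.23 to 7.46 between the 2 of slide 2, from 2.34 to 6.42 between the 2 of slide 3 and from 0.45 to 7.83 among the 4 of slide 4. The 3 arrays of highest Ly6a lay on 3 different slides. The lowest levels, 0.44 and 0.45, came from the arrays titled DEN at day 2 and ATRA at day 7, and the array titled DEN at day 7 was among the highest. Whether these differences belong to single animals cannot be told apart from treatment with 1 array per group.

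Several of the probes most like Ly6a were its neighbours. Of 29292 other tested probes, 14 (0.0478%) correlated with Ly6a at r of 0.8 or more over the 12 arrays. Of the 56 tested probes within 1 Mb of a member, 6 did, and of the 1086 farther along chromosome 15, 1 did. By gene, 6 of the 10 most like Ly6a were within 1 Mb of it, 7 were on chromosome 15, which holds 4.08% of genes with a position, and the r at rank 10 was 0.812. For Ly6c1, likewise 6 of 10 were within 1 Mb. Both the limit of 0.8 and the distances were chosen with the values known, and the r are descriptions over 12 arrays that share one scaling.

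All 6 neighbours lay on the side of higher coordinates, 81 to 435 kb from the Ly6a probe. On that side 6 of 9 tested probes within 500 kb reached 0.8, against 0 of 16 on the lower side and 0 of 31 beyond 500 kb. Without both G0s2 siRNA arrays and the day-7 DEN array, a subset taken after the values were seen, 2 of these 9 reached 0.8 over the other 9 arrays, 2 of 56 within 1 Mb and 51 of all 29292 (0.174%). The median r of the 9 was then 0.67, against 0.26 for the 16 and -0.03 for all tested probes, and that of Ly6c1 was 0.922 and 0.751 for its probes. In order of distance they were the unnamed probe A_55_P1968673 at 81 kb (r = 0.884), Ly6a2 at 137 kb (0.882), a pseudogene transcript read by A_55_P2129316 at 241 kb (0.975), Ly6f at 277 kb (0.844), Gm3142 at 331 kb (0.959) and 9030619P08Rik at 435 kb (0.915). The rest of the 9 were under the limit: the probe of an unnamed transcript at 227 kb (0.772), Ly6g at 163 kb (0.658) and the unnamed probe A_55_P2047617 at 153 kb (0.412).

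9030619P08Rik, a gene at the far end of this stretch, was above background on all 12 arrays. It read 1.98 with vehicle, 2.93 with ATRA, 1.16 with DEN, 2.46 with ATRA+DEN, 3.35 with control siRNA and 5.03 with G0s2 siRNA at day 2. At day 7 it read 1.97 with vehicle, 0.41 with ATRA, 3.41 with DEN, 1.61 with ATRA+DEN, 0.01 with control siRNA and 5.11 with G0s2 siRNA. The G0s2 siRNA arrays stood apart, and the day-7 DEN array barely exceeded the day-2 control siRNA array.

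Ly6f, another Ly6 gene, read 0.56 and -0.14 on the G0s2 siRNA arrays of day 2 and day 7. The other 10 arrays ran from -5.38 to -2.04, with -2.58 on the day-7 DEN array, which was not among its highest 3. Gm3142, above background on 5 arrays, read 0.37 and 0.26 on the G0s2 siRNA arrays and -2.19 on the day-7 DEN array, with the other 9 from -5.57 to -2.92. Ly6a2, above background on 2 arrays, read -1.04 and -1.63 on the G0s2 siRNA arrays and -3.36 on the day-7 DEN array. Ly6f was above background on 6 arrays and A_55_P1968673 on 4. Such probes entered the tested set through the arrays where they were high, so the count of neighbours at 0.8 is a description only.

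Other Ly6 genes nearby did not share the order. Ly6i, at -15 kb from Ly6a, towards lower coordinates, correlated with it at -0.229, and Lynx1, which modulates nicotinic receptors, at 0.335. On the higher side, Ly6h at 570 kb had r = -0.515 and Gpihbp1, which carries lipoprotein lipase to the capillary wall, -0.100 at 603 kb. Gpihbp1 ran only from 2.37 to 3.99 over the arrays. Ly6e and Ly6d lay on the lower side, at -36 and -233 kb.

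**Figure D3:**
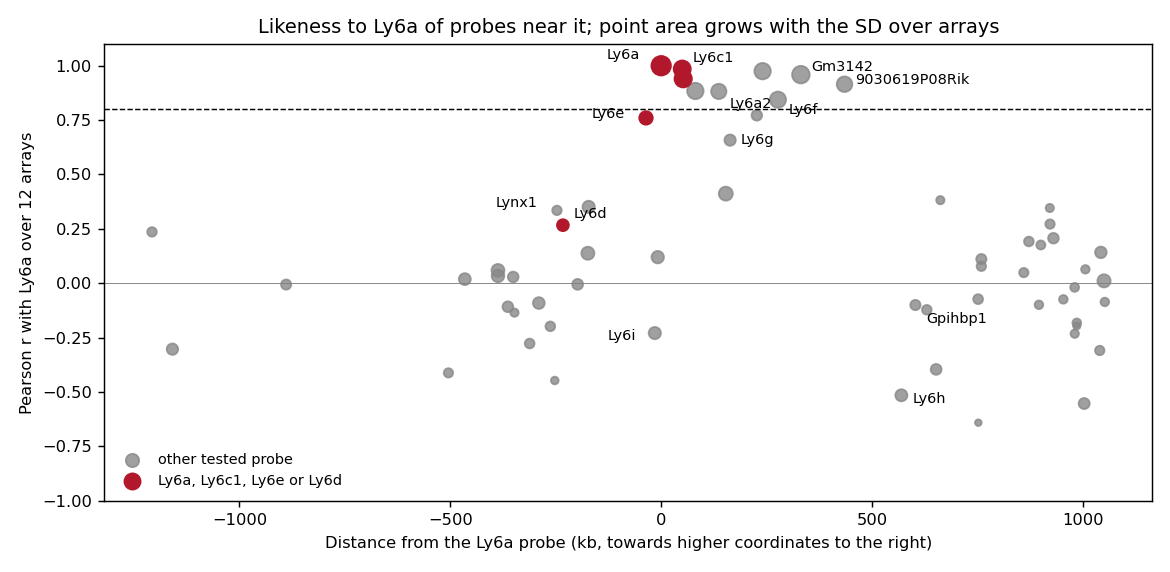
Pearson r with Ly6a over 12 arrays (vertical axis) of tested probes near it, by distance from the Ly6a probe in kb (horizontal axis); point area grows with the SD over arrays, and the dashed line is 0.8. Of the 9 non-member probes within 500 kb on the right, 6 are above the line, and 0 of 16 on the left.

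**Figure D4:**
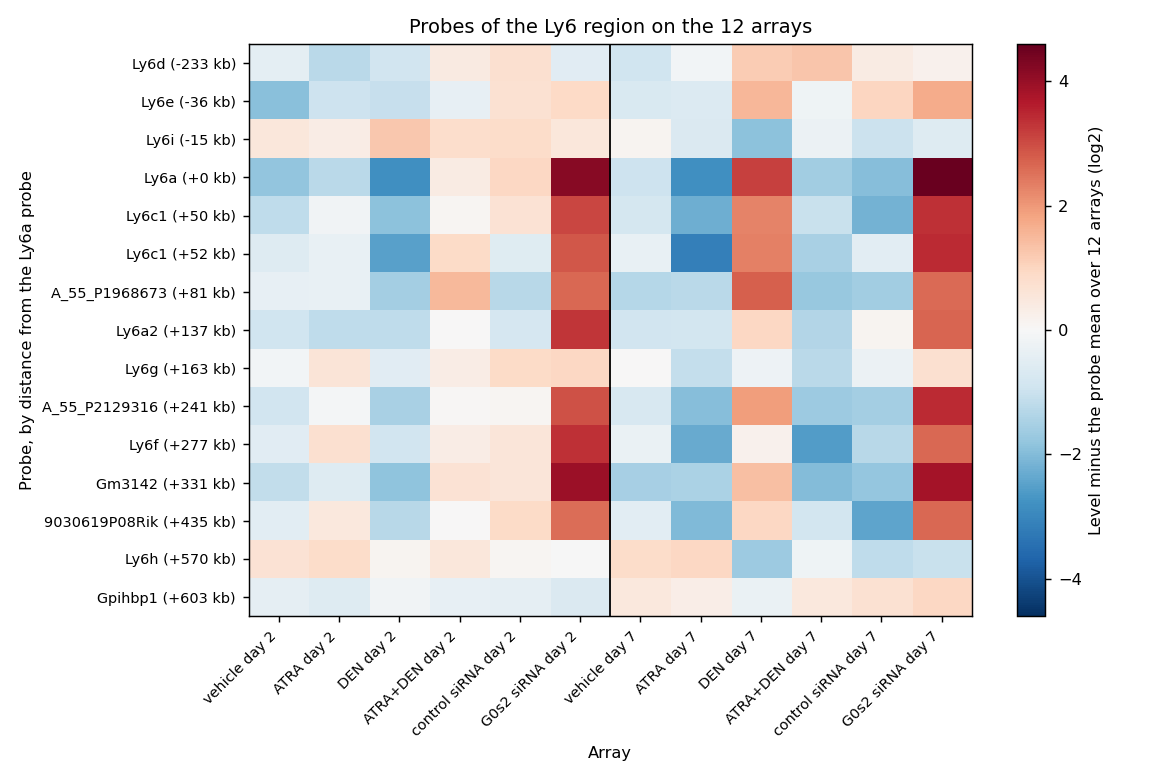
Deviation of each probe from its own mean over the 12 arrays (colour, log2) on each array (columns). The rows are a selection of probes of the Ly6 region in order of position, chosen in part for an r with Ly6a of 0.8 or more. From Ly6a to 9030619P08Rik the G0s2 siRNA columns are high in most of the rows shown, which follows in part from that choice. The tested probe A_55_P2047617 (r = 0.412) and that of the unnamed transcript at 227 kb (r = 0.772) are left out of this stretch. Ly6i, Ly6h and Gpihbp1 lack the pattern.

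Ly6e had other companions. None of its 10 most alike genes was on chromosome 15. Its nearest in pattern were Nqo1, an NRF2-controlled quinone reductase (r = 0.945), Pfdn2, a prefoldin subunit (0.935), and Morn2 (0.914). The bile salt pump Abcb11 was the most opposed, at -0.914. Nqo1 read -2.66 with vehicle at day 2, -0.23 and -0.81 on the day-2 siRNA arrays, 0.12 and 0.27 on the day-7 siRNA arrays -0.19 on the day-7 DEN array and -0.71 on the day-7 ATRA+DEN array. Its highest 4 arrays were thus among the 5 highest of Ly6e. Ly6d was most like Tmem45a (0.922), with Vwa1 (0.832), Fstl3 (0.831) and the B-lymphoid factor Spib (0.826) among the next, and none of its 10 was on chromosome 15.

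The rest of the Ly6 family was read as a list. Of 15 other genes of the chromosome 15 cluster 9 were tested, and for DEN 2 were higher and 7 lower, with none called and a median of -0.12, against -0.02 over all tested probes. For ATRA 4 were higher and 5 lower, with none called and a median of -0.01. Between days limma called 2 higher at day 7, Gpihbp1 (0.88, adjusted p = 0.015) and Lynx1 (0.66, adjusted p = 0.011). It called 3 lower, Gml2 (-1.90, adjusted p = 0.001), Ly6i (-1.42, adjusted p = 0.012) and Lypd2 (-0.69, adjusted p = 0.019). A second tested probe of Gml2, well above background on 4 arrays, had no common direction. At day 2 and day 7 it read -3.05 and -5.10 with vehicle, but -3.74 and -2.75 with ATRA. Of all tested probes, 23.2% were called higher and 21.4% lower at day 7. Of 21 more distant relatives of the family 11 were tested, and 1 was called higher and 3 lower at day 7. All 28 genes of GPI anchor synthesis and attachment, which these proteins need to reach the surface, were tested. For DEN 14 were higher and 14 lower, with a median of 0.00, and their median r with Ly6a was 0.081.

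Interferon-response genes were read because Ly6a and Ly6e are induced by interferon. Over all tested probes 13751 of 29297 were higher with DEN, at a median of -0.02. Of the interferon list, 35 of 39 tested genes were higher with DEN and 4 lower, at a median of 0.39 with none called. Among them Isg15, a ubiquitin-like modifier, differed by 0.61 (limma adjusted p = 0.446) and the transcription factor Irf7 by 0.90 (limma adjusted p = 0.389). In the G0s2 siRNA pair of day 2, where Ly6a differed by 3.23, only 5 of 39 were higher, at a median of -0.49, and in that of day 7 21 of 39 were, at a median of 0.08. The median over all tested probes was 0.06 in either pair. At day 2 the summed linear level of the interferon list was 572 with control siRNA, the highest of all arrays. It was 477 with G0s2 siRNA, the next highest, and 219 with vehicle. Irf7 differed by -1.47 at day 2 and 0.19 at day 7. The median r was 0.316 with Ly6a and 0.400 with Ly6e. The highest, named after its values were seen, was Bst2 (tetherin), at 0.643 with Ly6a and 0.851 with Ly6e.

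Cell types, among them carriers of Ly6a or Ly6c1, were read through their markers, as summed linear levels of each list. For sinusoidal and vascular endothelium, all 22 tested, the sum was 126 to 230 on the 3 arrays of highest Ly6a and 166 to 250 on the other 9. For monocytes and macrophages, 18 of 20 tested, it was 70.4 to 219 against 97.0 to 323. For T, B and NK cells, 16 of 21 tested, it was 65.4 to 135 against 65.5 to 106. For haematopoietic stem and progenitor cells, 10 of 12 tested, it was 6.72 to 7.16 against 5.03 to 7.73, and for neutrophils, 6 of 12 tested, 108 to 184 against 129 to 213. These ranges overlapped in each list. The markers Spi1, F13a1, Slamf1, Myb and Ncr1 were among those not well above background on 2 arrays. For keratinocytes, which carry Ly6d, 6 of 9 markers were tested, at 7.44 to 15.5 against 8.36 to 14.4. Hepatocyte markers, 17 of 18 tested, were the bulk of signal at 11956 to 14879 against 10706 to 16722.

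The markers were also set against Ly6a gene by gene. The median r with Ly6a was -0.106 for endothelium, 0.204 for monocytes and macrophages, 0.275 for T, B and NK cells, 0.040 for stem and progenitor cells and 0.127 for neutrophils, against 0.025 over all tested probes. No gene of these lists reached 0.8. That limit was met by only 14 of 29292 other tested probes (0.0478%), so no conclusion is drawn from this absence. The highest among endothelial markers was Tek (0.547) and that among T, B and NK cell markers was Thy1 (0.744), both named after their values were seen. In the G0s2 siRNA pairs the endothelial list had a median difference of -0.10 at day 2 and -0.19 at day 7, and that of monocytes and macrophages -0.36 and -0.69. The summed level of the monocyte and macrophage list was highest on the day-2 control siRNA array, at 323. Next was the day-2 G0s2 siRNA array, at 219. The part of any cell type in the Ly6a and Ly6c1 levels was not tested.

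**Figure D5:**
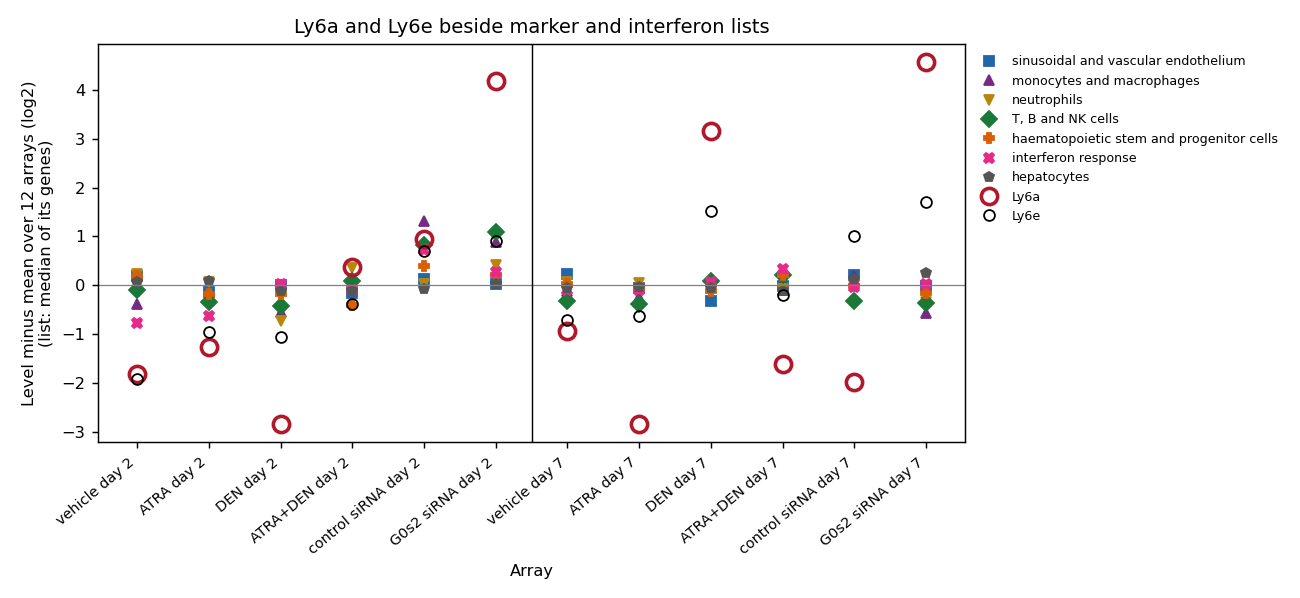
Deviation from the mean over 12 arrays (vertical axis, log2) of Ly6a, Ly6e and the median gene of each marker or interferon list on each array (horizontal axis). Ly6a lies above the lists on both G0s2 siRNA arrays and the day-7 DEN array.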

How the data were processed

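The deposited array files hold one-colour processed intensities of Agilent Feature Extraction, background-subtracted and detrended, per the file headers, which name version 10.7.1.1; the submitters' processing notes name 9.5.1.1. A deposited table of all 12 arrays holds linear intensities that were normalized within each day, as its values show, and was used only as an alternative within a day. Control spots and outlier spots were left out, spots of a probe were averaged as log2, and levels were taken relative to the 75th percentile of their array. Of 55681 probes, 29297 well above background on at least 2 arrays were tested; 12 with a missing value were left out. Probes were named by accession (27235), symbol (3581) or synonym (565) through the reference table, and 24300 kept the file's name.

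Limma 3.58.1 in R 4.3.3 (lmFit, eBayes, Benjamini-Hochberg over all tested probes) was fitted with the pair as a block: DEN over 12 arrays with the siRNA pairs sharing the spread, ATRA over 8 arrays, day over 12. Fits were tested on simulated data. The replicates of these fits are pairs that differ in other treatments, not samples of 1 group. Alternatives were quantile normalization, normexp correction with an offset of 50, the series table, other filters, 1 probe per gene, slide as a block, the treatment field for groups, and each pair left out. Members, gene lists, limits of likeness and tests were chosen with earlier results of these data known. Member probes were named by gene symbol. List genes and genes like a member were named by a rule, apart from those said to be chosen after their values were seen. Promoters came from the RefSeq table, which held the Ly6c1 entry.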

Additional observations from a re-analysis of the deposited data

Results flagged for a closer look

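The ATRA difference of Ly6a and of both Ly6c1 probes had opposite signs at the different times in every pair of arrays. For Ly6a the mean ATRA difference was 1.89 over the 2 pairs of day 2 and -3.32 over the 2 pairs of day 7, which is 5.21 apart. For the Ly6c1 probe A_55_P2064771 it was 1.51 and -2.37, or 3.88 apart. For the Ly6c1 probe A_55_P1961499 it was 1.83 and -3.30, or 5.13 apart, with its day-2 DEN and day-7 ATRA levels not well above background. The difference between the days was not tested. One of the day-7 pairs holds the day-7 DEN array that served to choose the genes, and both day-7 pairs span slides.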

How the results depend on the processing

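No paired analysis by replicate number was possible because each group had 1 array and the labels give no replicate numbers. With normexp background correction, 16 probes were called for DEN, and Ly6e and Ly6d were not among them. Ly6a and Ly6c1 are given no such test. With that correction the second Ly6c1 probe had a G0s2 siRNA difference of 2.84. Its ranges were 3.87 over all arrays, 3.17 at day 2 and 3.87 at day 7, and those of Ly6d were 1.05, 0.739 and 1.01. With groups from the treatment field, the DEN means were -1.51 for Ly6a, -1.30 and -1.83 for the Ly6c1 probes and -0.053 for Ly6e, and the ATRA means were 1.66, 1.23, 1.17 and 0.85. With slide as a block the ATRA means were 1.89, 1.51, 1.83 and 0.81, which rest on the day-2 pairs alone. The ATRA mean of Ly6e was 0.020 with quantile normalization, 0.051 with normexp and 0.013 in the series table, and the day mean of Ly6a was -0.051 with quantile normalization. The day mean of Ly6e passed the threshold with normexp (0.85) and with the stricter filter (0.90).

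With each pair left out in turn, the ATRA means ran from -2.02 to 0.63 for Ly6a, -1.24 to 0.53 and -2.11 to 0.29 for the Ly6c1 probes and -0.32 to 0.56 for Ly6e. The day means ran from -1.05 to 0.73 for Ly6a, where leaving out vehicle gave -0.03, from -1.07 to 0.33 and -0.85 to 0.68 for the Ly6c1 probes and from 0.57 to 1.04 for Ly6e. Leaving out ATRA gave 0.18 for the first Ly6c1 probe and leaving out G0s2 siRNA gave -0.01 for the second. DEN means kept their sign, from 0.61 to 2.31 for Ly6a, 0.24 to 1.51 and 0.32 to 1.85 for the Ly6c1 probes, 0.62 to 1.22 for Ly6e and 0.87 to 1.71 for Ly6d. One array per group limits every comparison.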
